A study of Homo sapiens with 6 samples.

Results

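The genes described here are the D-type cyclins CCND1, CCND2 and CCND3 and the cyclin-dependent kinase (CDK) inhibitors CDKN1A, CDKN1B, CDKN1C, CDKN2A, CDKN2B, CDKN2C and CDKN2D. They were chosen by family, and they are 10 of the 67140 genes in the count table. Of these members, 9 passed the filter on low counts and were tested. CDKN1C had 0 counts in every sample and was not tested.

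The samples are RNA-seq libraries of KYSE150, an established line of human esophageal squamous cell carcinoma (ESCC). The control group (shCtrl) holds 3 samples with a control hairpin, and the knockdown group (shAC007128.1) holds 3 samples with 1 hairpin directed against the long non-coding RNA AC007128.1. All were grown in RPMI medium with fetal bovine serum, and the methods describe stable lines made with lentivirus and selected with puromycin. The comparison addresses which transcripts differ when this lncRNA is targeted. The treatment text of the labels names shAC007128.1 for all 6 samples, so the groups were taken from the titles and descriptions. The labels do not say that the replicates of a group were separate cultures. The p-values therefore measure only the spread between these samples, which may be technical.

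The shCtrl replicates 1, 2 and 3 hold 72354339, 78610457 and 65140326 counts in all. For shAC007128.1 replicates 1, 2 and 3 the totals were 57880388, 55764405 and 60158244. Levels are given in CPM, the count relative to a library size scaled by the trimmed mean of M-values (TMM). A count of 3, taken as the floor, corresponds to 0.0382 to 0.0538 CPM, and this floor covers counting error only. A gene passed the test at an adjusted p of at most 0.05, and was called when its fold change was also at least 2. In bulk RNA, fewer cells with a transcript and less of it per cell cannot be told apart.

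D-type cyclins bind CDK4 and CDK6, and the complexes phosphorylate the retinoblastoma protein and so release E2F factors that start DNA replication. The INK4 inhibitors (CDKN2A to CDKN2D) bind CDK4 and CDK6 themselves, whereas the Cip/Kip inhibitors (CDKN1A to CDKN1C) bind cyclin-CDK complexes and restrain CDK2 in particular. In ESCC, amplification of CCND1 and loss of CDKN2A are frequent alterations.

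The targeted lncRNA, AC007128.1 (ENSG00000229970), lies on the plus strand of chromosome 7 at chr7:8262264-8344516 in hg38. It had 69, 33 and 53 counts in shCtrl replicates 1, 2 and 3, and 18, 37 and 15 counts in shAC007128.1 replicates 1, 2 and 3. In scaled units these are 0.943, 0.410 and 0.781 CPM against 0.320, 0.674 and 0.258 CPM. The groups overlap, since shAC007128.1 replicate 2 lies above shCtrl replicate 2. Mean levels were 0.712 ± 0.273 and 0.417 ± 0.224 CPM (SD, n = 3), and the log2 fold change of -0.77 ± 0.51 (SE) missed the threshold (adjusted p = 0.271 by edgeR's quasi-likelihood test). Leaving out 1 library at a time moved it between -1.29 and -0.51, the former without shAC007128.1 replicate 2 and the latter without shCtrl replicate 1. The knockdown group thus has the lower mean of its target, but the groups are not separated by it. Its exons share 398 bases with ICA1-AS1, 384 with ENSG00000272328 and 118 with ICA1 on the other strand, so reads from these genes may be mixed.

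The hairpin, as the study's list of hairpins gives it, is shown because an antisense strand that acts as guide could pair with other transcripts through its bases 2 to 8, which are in capitals.

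sense strand: ccacaagtcctggcacatt
antisense strand: aATGTGCCaggacttgtgg

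The matching site, GGCACAT, occurs in the longest annotated 3′ UTR of 0 of the 10 members. Among 19249 genes with a 3′ UTR, 2013 (10.5%) hold it. The UTRs of CCND2, CDKN1B, CCND1, CDKN2B and CDKN1A, with 5344, 3266, 3192, 3084 and 1537 bases, are longer than the median of 1229 bases, while the other 5 have 364 to 1006 bases. Because most genes lack the site, its absence says little about any member. The search describes letters only, and binding was not tested.

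A single sample stands apart within its group. As a chi-square per gene, which sets the difference of a pair of samples against counting noise, the distance between shAC007128.1 replicate 3 and replicates 1 and 2 was 107 and 84.2, against 43.3 between replicates 1 and 2 and 36.0 to 40.3 among the shCtrl samples. Across 19156 genes, its deviation from the group mean had a correlation of -0.280 with GC content, while replicates 1 and 2 had 0.167 and 0.133 and the shCtrl samples -0.005 to 0.007. Genes are not independent replicates, so these correlations are descriptions. The deviations within a group cancel for each gene, so the correlations of a group cannot all share a sign. Among the 9 tested members, shAC007128.1 replicate 3 was the lowest of its group in 8 and the highest in 1, CCND1. Values of the members are therefore given with and without this sample. How often this sample was the lowest over all genes was not counted, so its place cannot be read as particular to the members.

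Among the 9 tested members, 3 were higher and 3 were lower in shAC007128.1 at the adjusted p, and 3 did not pass. CCND3, CDKN2C and CDKN2D rose, CCND2, CDKN1A and CDKN2B fell, and CCND1, CDKN1B and CDKN2A did not pass. Of all 19254 genes tested, 21% passed as higher and 19.8% as lower. With the fold limit, CCND3 and CDKN2C were called higher (2 of 9, against 5.57% of all genes) and CDKN1A was called lower (1 of 9, against 10.1%). The groups did not overlap for 7 of the 9 members, against 55.2% of all genes. The median log2 fold change was 0.01 over the 9 members and -0.02 over all genes tested, with 5 members above 0 and 4 below. The former median is the value of CCND1 and changes sign with it under other scalings.

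**Figure D1:**
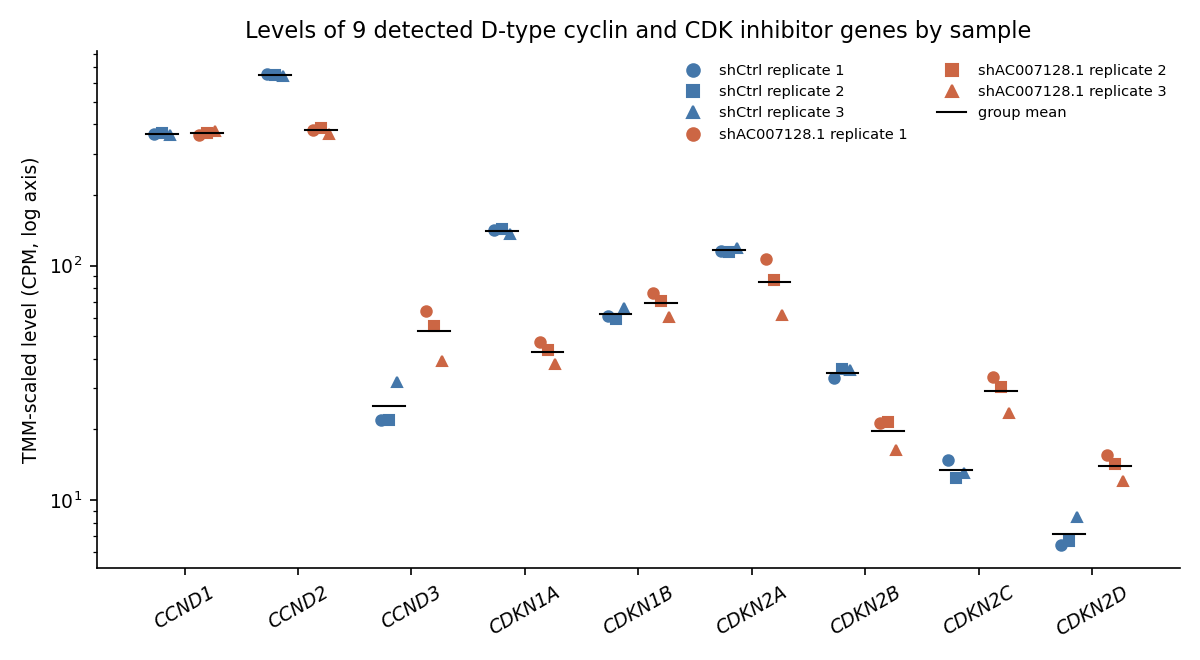
Level of each detected member in every sample (CPM after TMM scaling, log axis), with shCtrl in blue, shAC007128.1 in orange and group means as lines. CDKN1A sits at 137 to 144 CPM in shCtrl and 38.0 to 47.2 CPM in shAC007128.1, while the points of CCND1 lie between 362 and 375 CPM in both groups and the sign of its difference depends on the scaling.

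The D-type cyclins did not move together. CCND2 was lower, CCND3 was higher and CCND1 had nearly equal means in both groups.

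CCND1 (ENSG00000110092, chr11:69641156-69654474, plus strand) encodes cyclin D1. It had 365, 366 and 362 CPM in shCtrl replicates 1, 2 and 3, and 362, 366 and 375 CPM in shAC007128.1 replicates 1, 2 and 3. The groups overlap, and only shAC007128.1 replicate 3 lies visibly above the others. Means were 364 ± 2.08 and 368 ± 6.21 CPM (SD, n = 3). The log2 fold change was 0.01 ± 0.05 (SE; 95% interval -0.14 to 0.16), with an adjusted p of 0.869 by edgeR's quasi-likelihood test. Its sign depends on the scaling, since it was -0.06 with library size only and -0.13 with upper quartile scaling, and it also turned to -0.01 without shAC007128.1 replicate 3. Without a filter on low counts it was -0.03, with at least 10 counts required in each sample -0.02 and with counts divided by 4 -0.01. Under the 17 other settings tried, the adjusted p ranged from 0.102 to 0.975. Missing the threshold does not show that the levels were equal, but the interval contains no change as large as that of CCND2. The gene shares 497 exonic bases (10.4%) with LTO1 on the other strand.

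CCND2 (ENSG00000118971, chr12:4269771-4305353, plus strand) encodes cyclin D2. Its level was 655, 648 and 643 CPM in the shCtrl samples and 380, 387 and 364 CPM in the shAC007128.1 samples. Each knockdown sample lies far below each control sample, and the spread inside either group is small. From 648 ± 6.02 CPM the mean dropped to 377 ± 11.8 CPM, 58.2% of the control level. The log2 fold change was -0.78 ± 0.06 (SE), with an adjusted p of 7.9e-05 by edgeR's quasi-likelihood test, and it did not reach the 2-fold limit. Without shAC007128.1 replicate 3 it was -0.76. Its exons share 999 bases (12.5%) with ENSG00000285901 on the same strand, 162 with CCND2-AS1 and 106 with ENSG00000290063 on the other strand.

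CCND3 (ENSG00000112576, chr6:41934934-42050357, minus strand) encodes cyclin D3. It had 22.0, 21.9 and 31.8 CPM in shCtrl replicates 1, 2 and 3, and 64.1, 55.2 and 39.0 CPM in shAC007128.1 replicates 1, 2 and 3. The groups are separate but come close, because replicate 3 is the highest control and also the lowest knockdown sample. The mean rose 2.09-fold, from 25.2 ± 5.70 to 52.7 ± 12.7 CPM. Its log2 fold change, 1.06 ± 0.22 (SE; 95% interval 0.45 to 1.68), gave an adjusted p of 0.00745 in edgeR's quasi-likelihood test. The gene passed the test under all 17 other settings, but its 2-fold call ended in several. Outside these settings, glmTreat against a fold of 1.5 did not call it. The log2 fold change was 0.97 without shCtrl replicate 1, 0.97 without shCtrl replicate 2, 0.90 without shAC007128.1 replicate 1, 0.99 with library size only and 0.92 with upper quartile scaling. Without shAC007128.1 replicate 3 it was 1.23. Only 24 exonic bases are shared with a gene on the other strand, ENSG00000223946.

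The Cip/Kip inhibitors were led by CDKN1A, which fell in every knockdown sample. CDKN1B did not pass the test and CDKN1C was not detected.

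CDKN1A (ENSG00000124762, chr6:36676460-36687337, plus strand) encodes p21, a Cip/Kip inhibitor. Its level was 142, 144 and 137 CPM in shCtrl replicates 1, 2 and 3, and 47.2, 43.6 and 38.0 CPM in shAC007128.1 replicates 1, 2 and 3. The highest knockdown sample is far below the lowest control, so the groups are well separated. Mean levels were 141 ± 3.69 and 42.9 ± 4.64 CPM, and the knockdown mean was 30.4% of the control. The log2 fold change of -1.72 ± 0.10 (SE; 95% interval -1.99 to -1.45) is the largest in size among the members. It reached an adjusted p of 3.83e-05 by edgeR's quasi-likelihood test. The call held with each library left out in turn, between -1.79 and -1.64, the latter without shAC007128.1 replicate 3. DINOL, on the other strand, shares 146 of its exonic bases (4.87%).

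CDKN1B (ENSG00000111276, chr12:12685498-12722369, plus strand) encodes p27, which binds cyclin-CDK2 complexes. Its level was 61.0, 59.4 and 65.6 CPM in the shCtrl samples and 76.7, 70.4 and 60.6 CPM in the shAC007128.1 samples. Knockdown replicates 1 and 2 lie above every control, and replicate 3 lies among the controls. Means were 62.0 ± 3.21 and 69.2 ± 8.10 CPM. The log2 fold change was 0.16 ± 0.10 (SE; 95% interval -0.13 to 0.45), and the adjusted p of 0.268 by edgeR's quasi-likelihood test missed the threshold. This result rests on 1 library, since without shAC007128.1 replicate 3 the log2 fold change was 0.24 and passed with an edgeR adjusted p of 0.0482.

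CDKN1C (ENSG00000129757, chr11:2883213-2885775, minus strand) encodes p57, an imprinted Cip/Kip inhibitor. It had 0 counts in all 6 samples, so no level above 0.0382 to 0.0538 CPM was detectable at these depths.

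Of the INK4 inhibitors, CDKN2C and CDKN2D were higher and CDKN2B was lower in shAC007128.1. CDKN2A had a lower mean that did not pass the test.

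CDKN2A (ENSG00000147889, chr9:21967752-21995301, minus strand) encodes the CDK4 and CDK6 inhibitor p16 and, from another first exon, the MDM2-binding protein ARF. The count table holds 1 value per gene, so these transcripts cannot be told apart. Levels were 115, 115 and 119 CPM in the shCtrl samples and 106, 86.4 and 61.6 CPM in shAC007128.1 replicates 1, 2 and 3. All knockdown samples are below all controls, but they are spread widely and replicate 3 is the lowest. The means of 116 ± 2.04 and 84.8 ± 22.4 CPM show that the spread was almost entirely in the knockdown group. With a log2 fold change of -0.46 ± 0.18 (SE; 95% interval -0.95 to 0.04), the adjusted p was 0.081 in edgeR's quasi-likelihood test. It passed in edgeR without shAC007128.1 replicate 1 (-0.65, adjusted p = 0.0156), with upper quartile scaling (-0.60, adjusted p = 0.0302) and in DESeq2 (-0.47, adjusted p = 0.0313). Over all 17 settings the adjusted p ranged from 0.0156 to 0.172. Without shAC007128.1 replicate 3 the log2 fold change was -0.28 with an edgeR adjusted p of 0.0613. CDKN2B-AS1, on the other strand, shares 593 of its exonic bases (15.3%).

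CDKN2B (ENSG00000147883, chr9:22002903-22009305, minus strand) encodes p15, an INK4 inhibitor that TGF-beta signaling induces. It had 33.1, 36.1 and 35.7 CPM in the shCtrl samples and 21.3, 21.5 and 16.4 CPM in the shAC007128.1 samples. No knockdown sample reaches the lowest control. The mean fell from 34.9 ± 1.62 to 19.7 ± 2.93 CPM, which is 56.5% of the control. Its log2 fold change was -0.82 ± 0.13 (SE), with an adjusted p of 0.00214 by edgeR's quasi-likelihood test. Without shAC007128.1 replicate 3 the value was -0.71.

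CDKN2C (ENSG00000123080, chr1:50960745-50974634, plus strand) encodes p18, another inhibitor of CDK4 and CDK6. Its level was 14.8, 12.4 and 13.1 CPM in the shCtrl samples and 33.6, 30.4 and 23.5 CPM in shAC007128.1 replicates 1, 2 and 3. Every knockdown sample is above every control, and replicate 3 is the closest to them. The mean rose 2.17-fold, from 13.4 ± 1.24 to 29.2 ± 5.15 CPM. The log2 fold change was 1.12 ± 0.15 (SE; 95% interval 0.69 to 1.55), with an adjusted p of 0.00122 by edgeR's quasi-likelihood test. It was 1.25 without shAC007128.1 replicate 3. The 2-fold call ended with upper quartile scaling, at 0.98, although the gene still passed the test there. ENSG00000290102, on the other strand, shares 617 of its exonic bases (20.4%), so part of the counts may come from that gene.

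CDKN2D (ENSG00000129355, chr19:10566460-10569059, minus strand) encodes p19, the remaining INK4 inhibitor. It had 6.45, 6.69 and 8.42 CPM in the shCtrl samples and 15.5, 14.3 and 12.0 CPM in the shAC007128.1 samples. The groups are separate, with replicate 3 again the highest control and the lowest knockdown sample. The mean rose 1.94-fold, from 7.19 ± 1.07 to 13.9 ± 1.76 CPM. Its log2 fold change of 0.96 ± 0.16 (SE) had an adjusted p of 0.00317 in edgeR's quasi-likelihood test and stayed just under the 2-fold limit. The gene passed that limit without shAC007128.1 replicate 3 (1.04), without shCtrl replicate 3 (1.08) and with GC content correction (1.17).

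**Figure D2:**
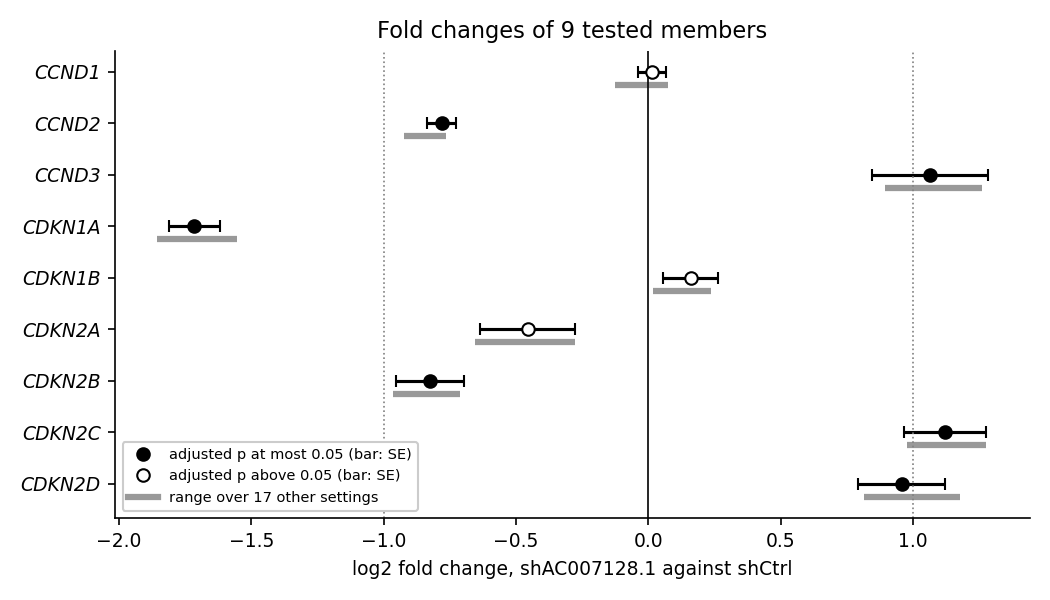
Log2 fold change of each tested member, shAC007128.1 against shCtrl, as points with SE bars (n = 3 per group), filled where the edgeR adjusted p is at most 0.05; grey bars span 17 other settings and dotted lines mark the 2-fold limits. CDKN1A lies at -1.72, CCND3 at 1.06 and CDKN2C at 1.12, and the grey bar of CCND1 crosses 0 because library size only (-0.06) and upper quartile scaling (-0.13) turn its sign.

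Levels were also divided by the summed length of each gene's annotated exons, so that genes could be compared with each other. On this scale (CPM per kilobase) CCND2 was the most abundant member in shCtrl, at 81.2 ± 0.754, followed by CCND1 at 76.5 ± 0.436. CDKN1A came next at 47.0 ± 1.23, then CDKN2A at 29.9 ± 0.526, CDKN2B at 8.73 ± 0.406 and CDKN1B at 6.70 ± 0.347. The lowest detected members were CDKN2D at 4.77 ± 0.713, CDKN2C at 4.45 ± 0.412 and CCND3 at 4.38 ± 0.990, and these overlap in range, from 3.80 to 5.59 over the 3 genes. In shCtrl the other neighbours in this order do not overlap.

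In shAC007128.1 the order changed at the top, where CCND1 at 77.2 ± 1.30 stood above CCND2 at 47.2 ± 1.48. CDKN2A, at 21.8 ± 5.77, was now above CDKN1A, at 14.3 ± 1.55, although the lowest CDKN2A sample (15.8) lies just above the highest CDKN1A sample (15.7). CDKN2C at 9.66 ± 1.71, CDKN2D at 9.26 ± 1.17, CCND3 at 9.15 ± 2.21 and CDKN1B at 7.48 ± 0.875 overlap with each other. CDKN2B was the lowest detected member, at 4.94 ± 0.733. The order depends on the length used. The annotated exons of CDKN2A span 3885 bases in all but its longest transcript has 1052, and for CCND3 these lengths are 5761 and 2394. Per kilobase of the longest transcript, CDKN2A had 110 in shCtrl and 80.6 in shAC007128.1 and ranked 1 and 2. On that scale CCND3 had 10.5 and 22.0 and ranked 6 and 4, and CDKN1B had 14.3 and 16.0.

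Within-sample shares, which do not depend on library scaling, describe the make-up of each family. CCND1 made up 47.2%, 47.5% and 46.9% of the summed D-type cyclin level per length in shCtrl replicates 1, 2 and 3, and 56.4%, 57.0% and 60.0% in shAC007128.1 replicates 1, 2 and 3. All knockdown samples are above all controls, with replicate 3 the highest. The mean share was 47.2% ± 0.304 and 57.8% ± 1.93 (SD, n = 3), a difference of 10.6 percentage points. The exact two-sided permutation test gave p = 0.1 (0.1 after Benjamini-Hochberg adjustment over the 2 shares tested), which is the smallest p that 3 against 3 samples can give. CCND2 went from 50.1% to 35.3% of the sum and CCND3 from 2.70% to 6.83%. The summed level itself was 162 ± 0.351 CPM per kilobase in shCtrl and 134 ± 2.26 in shAC007128.1.

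Among the CDK inhibitors, CDKN1A held 46.9%, 47.3% and 44.7% of the summed level per length in the shCtrl samples and 20.1%, 21% and 23.1% in the shAC007128.1 samples. The knockdown samples all lie below the controls, and here replicate 3 is the knockdown sample nearest to them. The mean share of 46.3% ± 1.38 became 21.4% ± 1.5, a difference of -24.9 percentage points. With the length of the longest transcript the shares of CDKN1A were 30.2% and 13.7%, a difference of -16.6 points, and CDKN2A held the largest share of the inhibitors in both groups (53.7% and 56.9%). By the union of exons, the exact two-sided permutation p for CDKN1A was also 0.1, or 0.1 after adjustment over both shares. CDKN2C and CDKN2D had the largest gains in share, from 4.38% to 14.3% and from 4.70% to 13.8%. CDKN1B had 6.59% and 11.2%, and CDKN2B had 8.60% and 7.34%. For CDKN2A, the mean shares of 29.4% and 32.0% come from groups that overlap.

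Summed over the CDK inhibitors, the level per kilobase was 101, 102 and 102 in the shCtrl samples and 78.2, 69.3 and 54.9 in shAC007128.1 replicates 1, 2 and 3. All knockdown sums are lower, and replicate 3 has the lowest. The Cip/Kip sum was 53.7 ± 0.884 against 21.8 ± 2.42, whereas the INK4 sum was 47.9 ± 1.29 against 45.7 ± 9.29 with overlapping groups. Per kilobase of the longest transcript, the Cip/Kip sum was 76.5 ± 0.886 against 34.9 ± 3.92 and the INK4 sum 129 ± 2.74 against 106 ± 24.955, the latter again with overlapping groups. These sums were not tested.

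**Figure D3:**
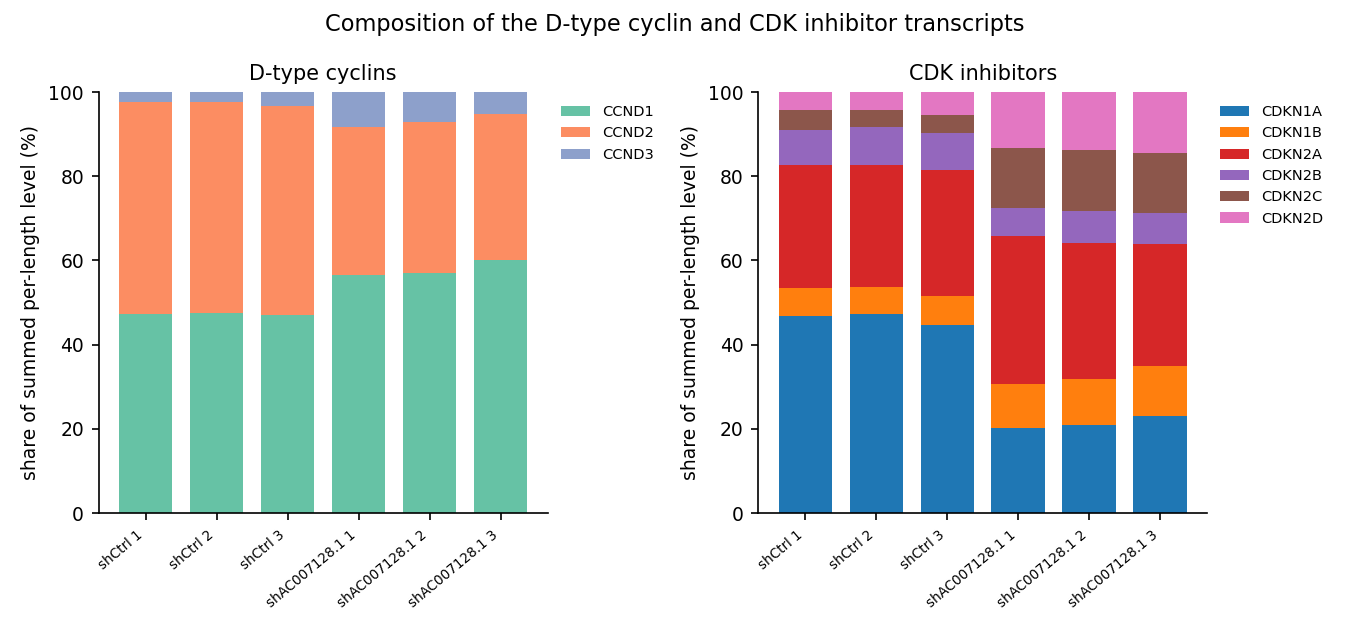
Share of each member in the summed level per length of the D-type cyclins (left) and of the CDK inhibitors (right), in percent, with 1 bar per sample. CCND1 makes up 46.9% to 47.5% of the D-type cyclins in shCtrl and 56.4% to 60.0% in shAC007128.1, and CDKN1A makes up 44.7% to 47.3% and 20.1% to 23.1% of the inhibitors.

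The members also varied inside the groups. Relative to the mean of shAC007128.1, replicate 3 deviated by -0.44 for CCND3, -0.46 for CDKN2A and -0.31 for CDKN2C on the log2 scale, but by 0.03 for CCND1 and -0.05 for CCND2. Replicate 1 deviated by 0.28, 0.33 and 0.20 for CCND3, CDKN2A and CDKN2C, and was the highest of its group in 6 of the 9 members. In shCtrl the largest deviation was that of CCND3 in replicate 3, at 0.33, while CCND1 and CCND2 stayed between -0.01 and 0.01. The longest transcripts of CCND3, CDKN2A, CDKN2C and CDKN2D have 56.2%, 58.3%, 58.1% and 61.2% GC, and those of CCND1 and CCND2 50.3% and 46.7%. For the other members, replicate 3 deviated by -0.18 for CDKN1A (58.05% GC), -0.21 for CDKN2D, -0.27 for CDKN2B (44.2% GC) and -0.19 for CDKN1B (42.7% GC). With GC content correction, the log2 fold changes between the groups were 0.08 for CCND1, -0.77 for CCND2, 1.18 for CCND3, -1.56 for CDKN1A, 0.09 for CDKN1B, -0.31 for CDKN2A, -0.87 for CDKN2B, 1.27 for CDKN2C and 1.17 for CDKN2D. Every sign and every side of the adjusted p threshold stayed, and CDKN2D was called. What the deviations come from was not tested.

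**Figure D4:**
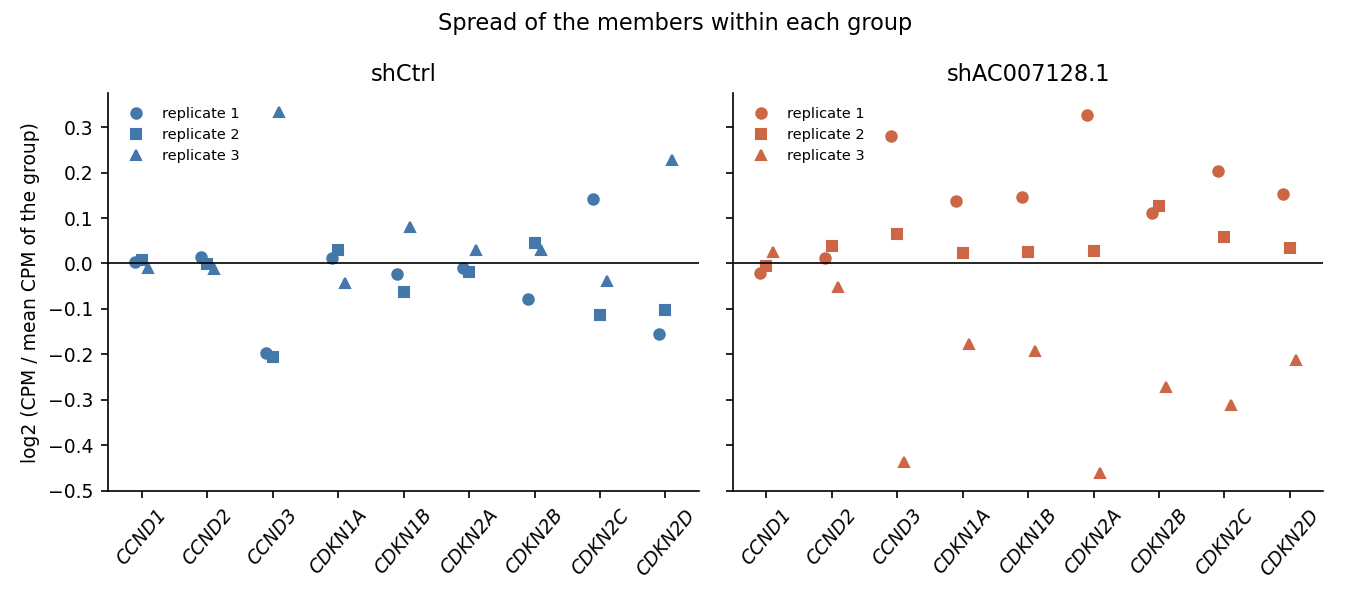
Deviation of each sample from the mean of its own group, as log2 of the CPM ratio, for the 9 detected members in shCtrl (left) and shAC007128.1 (right). In shAC007128.1, replicate 3 is lowest for 8 members, down to -0.46 for CDKN2A, and CCND1 is the exception at 0.03.

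Without shAC007128.1 replicate 3, the members that had passed the test with all samples did so again. CDKN1A had a log2 fold change of -1.64 with an edgeR adjusted p of 4.27e-05, and CCND2 had -0.76 with 4.87e-05. For CDKN2B the adjusted p from edgeR was then 0.00104. CCND3, CDKN2C and CDKN2D had edgeR adjusted p values of 0.00398, 0.000455 and 0.00364. The largest shift of a member was that of CDKN2A, from -0.46 to -0.28, and CDKN1B was the only member that changed sides of the adjusted p threshold.

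Promoter sequences from RefSeq (GRCh38.p14) were matched for 7 of the 10 members, with 12 start sites in all. The table used here holds no entry for CCND1, CCND2 and CDKN1C. Each window holds the 250 bases before a start site, read 5′ to 3′ on the strand of the gene. The motifs searched on both strands were E2F (TTTCCCGC, TTTGGCGC, TTTCGCGC or TTTGCCGC), the cell cycle homology region (TTTGAA), SP1 (GGGCGG), AP-1 (TGANTCA) and the TATA box (TATAAA). Of 35116 such windows, 2.79%, 13.3%, 42.6%, 6.57% and 10.7% hold these motifs. Of these motifs, the windows of the members hold SP1 only. Below are windows of the inhibitors whose transcripts fell (CDKN1A, CDKN2B) or rose (CDKN2C, CDKN2D), with GGGCGG or its reverse complement in capitals. For CDKN2C, the window with the most matches is shown. The windows lie at chr6:36678464-36678713 (plus strand), chr9:22009306-22009555 (minus), chr1:50968456-50968705 (plus, the middle one of 3 start sites) and chr19:10568980-10569229 (minus).

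CDKN1A: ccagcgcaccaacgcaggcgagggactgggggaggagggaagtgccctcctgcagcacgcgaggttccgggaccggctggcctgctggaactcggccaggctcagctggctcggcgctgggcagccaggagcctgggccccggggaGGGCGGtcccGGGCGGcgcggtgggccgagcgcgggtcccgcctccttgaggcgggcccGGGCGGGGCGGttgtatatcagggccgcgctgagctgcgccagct
CDKN2B: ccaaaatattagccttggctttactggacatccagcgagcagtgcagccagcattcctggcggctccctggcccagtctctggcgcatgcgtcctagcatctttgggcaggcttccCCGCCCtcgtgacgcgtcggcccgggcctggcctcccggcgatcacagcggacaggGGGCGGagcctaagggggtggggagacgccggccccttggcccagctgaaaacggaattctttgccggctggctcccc
CDKN2C: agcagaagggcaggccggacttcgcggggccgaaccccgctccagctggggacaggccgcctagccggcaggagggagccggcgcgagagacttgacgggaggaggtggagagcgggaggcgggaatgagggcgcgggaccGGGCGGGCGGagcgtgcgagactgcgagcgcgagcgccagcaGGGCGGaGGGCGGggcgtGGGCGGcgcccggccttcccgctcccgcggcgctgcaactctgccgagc
CDKN2D: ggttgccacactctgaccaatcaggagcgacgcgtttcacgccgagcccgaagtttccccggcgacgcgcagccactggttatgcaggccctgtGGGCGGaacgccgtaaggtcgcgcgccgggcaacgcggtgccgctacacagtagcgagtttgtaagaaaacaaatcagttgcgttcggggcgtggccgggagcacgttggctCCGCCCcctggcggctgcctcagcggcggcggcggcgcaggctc

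CDKN1A has 4 matches, which begin 104, 94, 45 and 40 bases before the start, and the last pair overlaps by 1 base. CDKN2B has 2, at 134 and 78 bases. CDKN2C has 5 in this window, at 109, 105, 67, 60 and 49 bases, of which the first pair overlaps by 2 bases, while its other start sites have 0 and 1. CDKN2D has 2, at 156 and 44 bases. The windows of CCND3 hold 5, 2 and 0 matches, that of CDKN1B holds 1, and those of CDKN2A hold 0 and 1. A match is a description of letters, and the lack of one says only that these letters are not in this window. Binding of a factor was not measured.

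Of the kinases and cyclins that the members act with and their regulators, such as the CDC25 phosphatases and the assembly factor MNAT1, 13 of 17 tested passed as higher and 0 as lower, beside 21% and 19.8% of all genes tested. The median log2 fold change was 1.10 against -0.02 for all genes, and 0.96 to 1.21 over the settings, in which 13 passed as higher throughout and 0 to 1 as lower. CDK6, the main partner of D-type cyclins and target of the INK4 proteins beside CDK4, rose from 171 to 731 CPM (2.1 on the log2 scale). CDK4 had 132 and 140 CPM and did not pass (0.09, adjusted p = 0.548 from edgeR). The S phase cyclin CCNA2 rose from 44.8 to 178 CPM (1.99). CCNE2 (1.77), CCNB1 (1.20), CDC25A (2.06), CDC25C (1.30), WEE1 (1.64) and PKMYT1 (1.51) were also called higher. The calls of CCNB2 (1.03), CDC25B (1.02) and CDK1 (1.10) lie close to the 2-fold limit. They ended without 1 library, with 0.998 without shCtrl replicate 2, 0.93 without shCtrl replicate 1 and 0.92 without shAC007128.1 replicate 3, and under upper quartile scaling, at 0.88, 0.88 and 0.96. Those of CCNB2 and CDC25B also ended with library size only (0.95 for both), without a filter (0.98 for both) and with a minimum of 10 counts per sample (0.99 for both), and those of CCNB2 (0.98) and CDK1 (0.87) with GC content correction, with or without the replicate block. Like CDK4, CCNH (0.03) and CCNE1 (0.09) did not pass. The only negative value, that of CDK7 (-0.25), passed in 1 setting only, the replicate block with GC content correction (-0.38, adjusted p = 0.0118 from edgeR).

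Genes for the turnover of the members were mixed for D-type cyclins. Of 12 tested, 7 passed as higher and 3 as lower, beside 21% and 19.8% of all genes tested, with a median of 0.33 against -0.02. Over the settings 4 to 7 passed as higher and 2 to 3 as lower, with medians of 0.19 to 0.45, and only 4 were higher without shCtrl replicate 2, without shCtrl replicate 3 or with upper quartile scaling. FBXW8 (-1.14) and FBXO4 (-1.52), F-box proteins described as binding cyclin D1, fell and were called, and FBXO31 (-0.40) fell by less. FBXO31 did not pass without shCtrl replicate 2, without shCtrl replicate 3 or without shAC007128.1 replicate 2. Its pass also ended with the replicate block and with GC content correction, alone or together. FBXO4's partner CRYAB was called higher (2.75) from a low level of 0.404 CPM to 2.73 CPM, and its exons overlap those of HSPB2 on the other strand. SKP1 (0.59) and DDB1 (0.41), shared with other ubiquitin ligases, rose. Of 14 genes for turnover of the inhibitors, 11 passed as higher (8 to 11 over the settings) and 0 as lower, beside the same shares of all genes, with a median of 0.52 (0.38 to 0.57) against -0.02, while CUL4A (-0.05), RNF123 (-0.05) and NEDD8 (0.39) did not pass. SKP2 (1.20), the F-box protein for p27, and DTL (1.60), which targets p21 in S phase, were called higher, and UBAC1 (0.68) passed. CKS2 (1.03) lost its call in 8 settings, among them those without shCtrl replicate 3 (0.96), without shAC007128.1 replicate 1 (0.97), with upper quartile scaling (0.89) and with GC content correction (0.93). The lists share CUL1, SKP1, CUL4A, CUL4B, DDB1 and CDC20.

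Of 24 transcription factors and other transcriptional regulators known to act on the members' genes, 7 passed as higher and 6 as lower. Of all genes tested, 21% and 19.8% did so, and the median of the list was -0.05. Over the settings 7 to 8 passed as higher and 5 to 9 as lower, with 9 lower without shAC007128.1 replicate 3. The immediate early factors EGR1 and FOS fell from 386 to 91.7 CPM (-2.07) and from 189 to 44.2 CPM (-2.10), and both were called. CTNNB1 (0.74) and STAT3 (0.78) rose, and EZH2 (1.35), a Polycomb enzyme that acts on the CDKN2A locus, was called higher.

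**Figure D5:**
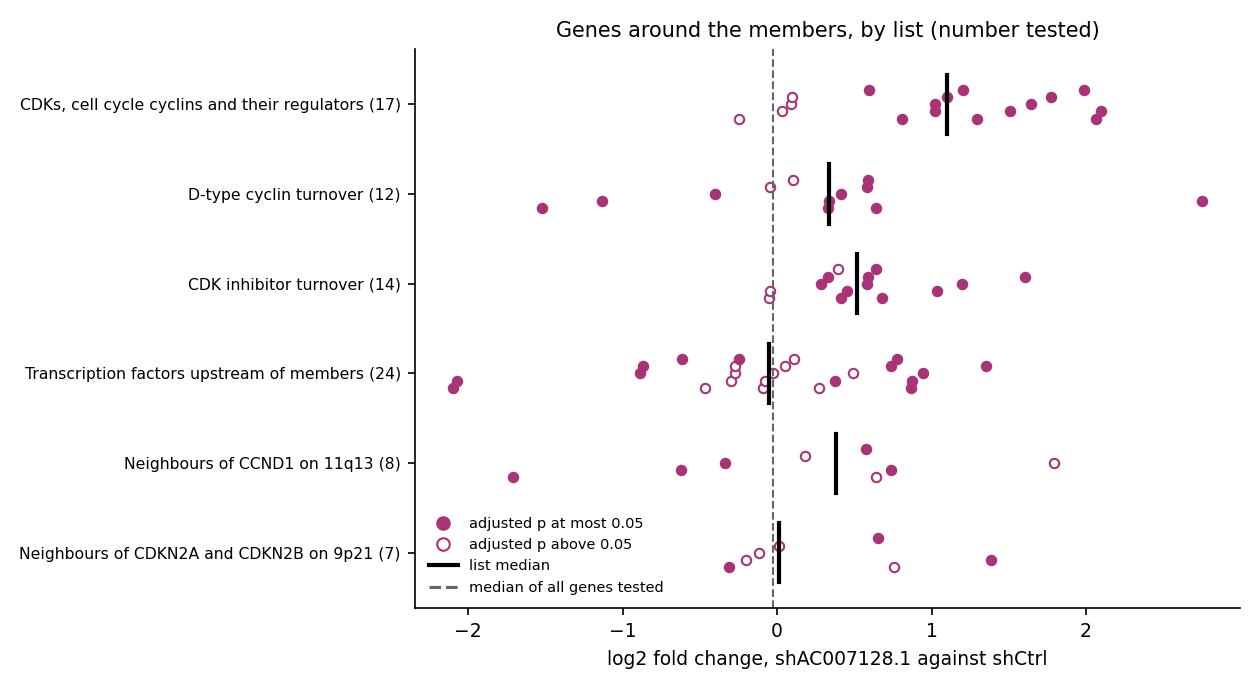
Log2 fold change of each tested gene, shAC007128.1 against shCtrl, in 6 lists of genes around the members, filled where the edgeR adjusted p is at most 0.05, with the list median as a bar and the median of all genes (-0.02) as a dashed line. Kinases, cyclins and their regulators have a median of 1.10. Transcription factors and other transcriptional regulators (-0.05) lie near all genes, with a median that ranges over settings from -0.19 to 0.07.

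Markers were used to check the cell type. All 12 squamous epithelial markers were tested, of which 8 passed as higher and 1 as lower (21% and 19.8% of all genes), and their summed level was 2320, 2288 and 2386 CPM in shCtrl and 4061, 3747 and 3564 CPM in shAC007128.1. KRT5 was the most abundant, and without it the mean sums were 1746 and 2720 CPM. Of 7 fibroblast markers 3 were tested, and all 7 together had sums of 15.3, 15.9 and 16.2 against 20.9, 23.9 and 22.6 CPM, led by COL1A1. Without COL1A1 the mean sums were 1.85 and 4.97 CPM. LUM, called higher, rose from 1.07 to 4.71 CPM. PDGFRB fell from 0.470 to 0.154 CPM and was called lower at an adjusted p of 0.0474 from edgeR (0.0778 to 0.186 in 5 of the 6 fits with 1 library left out, 0.0539 in limma-voom, 0.0792 without a filter, 0.0591 with GC content correction, and 0.0778 and 0.0925 with the replicate block, without and with that correction). COL1A2, COL3A1 and PDGFRA were not tested and were at 0 in every shAC007128.1 sample. In shCtrl replicates 1, 2 and 3, COL1A2 had 0, 0 and 4 counts, COL3A1 16, 0 and 4, and PDGFRA 0, 13 and 10. Their groups overlap. Of 6 immune markers 3 were tested, and all 6 together had sums of 68.3, 66.1 and 59.4 against 24.1, 14.8 and 16.7 CPM. Nearly all of this was CD68, without which the means were 0.758 and 1.01 CPM. Of 4 endothelial markers 2 were tested, and all 4 together had sums of 2.12, 2.72 and 3.11 against 0.302, 2.02 and 1.20 CPM, led by VWF, with means of 0.473 and 0.369 CPM without it. CDH5 and KDR, with means of 0.321 and 0.0207 CPM in shCtrl, were at 0 in every shAC007128.1 sample. In shCtrl, KDR had counts in replicate 2 only. PECAM1 had 0.131 and 0.369 CPM and did not pass. With 1 library left out, up to 2 endothelial markers were called lower. The squamous sum moves with the groups, and its part in the values of the members was not tested.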

How the data were processed

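Per the labels, the submitters' processing notes name CASAVA 1.8 and TopHat2 2.0.6, and the methods name another TopHat version, with hg38 as the genome. The labels list mm10 beside GRCh38 as builds. The authors deposited estimated counts per Ensembl gene, not normalized and written as whole numbers, which were rounded and used as they are. The counting program, annotation release and use of strand are not given in the sources used here. A count of 4 occurred for 1355 genes of shCtrl replicate 1, against 761 for a count of 3 and 993 for 5, so counts divided by 4 were tried as an alternative. The control columns were matched to samples by the titles. The knockdown columns carry a name other than that in the titles and were matched through the descriptions, with 0 unmapped.

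Genes were filtered with filterByExpr (47886 of 67140 identifiers removed), scaled by TMM (factors 0.967 to 1.04) and tested in edgeR 4.0.16 (quasi-likelihood, Benjamini-Hochberg adjustment over all 19254 genes tested) in R 4.3.3. The SE is the size of the log2 fold change over the root of F, and 95% intervals use 4 residual degrees of freedom. Lengths, positions and GC content came from GENCODE v44, which holds 60357 of the identifiers (89.9%). Shares used an exact permutation test. Figures were drawn in matplotlib 3.10.9 under Python 3.11.

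Alternatives were DESeq2 1.42.0, limma-voom (limma 3.58.1), other scalings and filters, glmTreat, no fold limit, the replicate block and each library left out. Correction for GC content, with or without the block, was chosen after seeing the data. The members and lists were chosen with earlier results of these data known. Genes named are AC007128.1, the members, up to 5 tested genes with the smallest p and every called gene of each list around the members, and for CCND1 and CDKN1A each the 2 genes with the most similar pattern. A few further list genes are named to complete a count. Of the lists planned, 1 is not reported here, nor are some single genes. The steps were tested on simulated data.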

Additional observations from a re-analysis of the deposited data

How the results depend on the processing

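Over 17 settings and 9 tested members, 143 of 153 log2 fold changes kept their direction and their side of the adjusted p threshold, 4 passed it newly, 0 lost it and 6 changed sign. All 6 were CCND1, at -0.061 with library size only, -0.13 with upper quartile scaling, -0.0302 without a filter, -0.0205 with a minimum of 10 counts per sample, -0.0064 after division by 4 and -0.0089 without shAC007128.1 replicate 3. CDKN2A passed in DESeq2 (-0.47) and with upper quartile scaling (-0.60). Members called higher numbered 1 with library size only, 0 with upper quartile scaling and 1 by glmTreat against a fold of 1.5. Of all 19254 genes tested, 899, 770 and 1193 were called higher in these settings, against 1073 in the main setting. Members called lower numbered 2 by glmTreat, beside 1518 of all genes, and 3 with no fold limit. With no fold limit, 4041 genes were higher and 3820 lower, against 1073 and 1945. The difference in share was 8.02 points for CCND1 with the longest transcript, and for CDKN1A -16.6 with the longest transcript and -21.0 with no length correction. The cause was not tested.

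With 1 library left out, the ranges were -0.0089 to 0.0225 for CCND1, 0.0774 to 0.24 for CDKN1B and -0.65 to -0.28 for CDKN2A. Members called higher numbered 1 to 3, and members called lower 1 throughout. Genes called higher numbered 970 to 1068 and lower 1586 to 2023.

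Upper quartile scaling moved the median of all genes by -0.14, and CCND1 lay 0.04 above that median both there and in the main setting. Higher genes were 35.6% of those called with TMM and 24.6% with upper quartile scaling. Without a filter on low counts, the median was -0.15 over 34756 genes, a move of -0.13, but -0.07 over the genes of the main setting, against -0.02 there.

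The deviations of same-numbered samples had correlations of 0.031, -0.026 and -0.03 across genes, against -0.027 to 0.05 for differently numbered ones. No large shift shared by replicate number is seen. These values cannot tell whether same-numbered samples were handled together, which the labels do not say. With the replicate block, 977 genes were called higher and 1692 lower, with 2 members higher and 1 lower. CDKN1A was -1.72 and CCND3 1.06 there, with edgeR adjusted p values of 0.000849 and 0.0277. Adding GC content correction to the block gave 1008 and 1507 genes and 3 and 1 members, the added one being CDKN2D (1.18).

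There is 1 hairpin, 1 line and 3 samples per group, and depths of 55764405 to 78610457 counts leave a gene such as AC007128.1, with 15 to 69 counts, poorly measured. Exons shared with other genes, and transcripts of 1 gene, could not be separated.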

Other observations

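CCND1 lies on 11q13 among genes often amplified with it. Of 11 neighbours 8 were tested, and FGF3, FGF4 and FGF19 had 0 counts in every sample. At the adjusted p in edgeR, 2 were higher and 3 lower in shAC007128.1, beside 21% and 19.8% of all genes tested, with a median log2 fold change of 0.38 against -0.02 for all genes. Over the settings 1 to 4 were higher and 1 to 3 lower, with medians of 0.15 to 0.45. PPFIA1 rose (0.58) and MYEOV was called lower (-1.71). LTO1 (-0.62), whose exons overlap those of CCND1, passed with an adjusted p of 0.0402 in edgeR but not without shCtrl replicate 1 (0.131), shCtrl replicate 3 (0.111), shAC007128.1 replicate 1 (0.0931) or shAC007128.1 replicate 3 (0.0878), nor with the replicate block, alone (0.0822) or with GC content correction (0.101). FADD (-0.34) did not pass without shCtrl replicate 1 (edgeR adjusted p = 0.0518) or with GC content correction, alone (0.146) or with the block (0.208). SHANK2 (0.74) kept its pass only without shCtrl replicate 2 among the fits that leave out 1 library, and elsewhere the edgeR adjusted p ranged up to 0.0986. It also did not pass with upper quartile scaling (0.0603) or without a filter (0.0608).

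CDKN2A and CDKN2B lie on 9p21. Of 7 neighbours tested there, 2 passed as higher and 1 as lower, beside the same shares of all genes, with a median of 0.01 that ranged from -0.13 to 0.15 over the settings. FOCAD (0.66) rose, and MIR31HG (1.39) was called higher at a low level of 1.38 to 3.63 CPM. KLHL9 (-0.31) passed with an edgeR adjusted p of 0.0404, but with 1 library left out it reached 0.0772 to 0.125 in 5 of 6 fits, and with the replicate block 0.0868. CDKN2B-AS1, antisense to CDKN2B, had 7.68 and 6.68 CPM and did not pass (-0.20, edgeR adjusted p = 0.491, and -0.41 to -0.05 with 1 library left out). IFNE (0.76) did not pass either, at an edgeR adjusted p of 0.451, and moved between 0.29 and 1.78 with 1 library left out. MTAP (38.1 and 35.1 CPM), next to CDKN2A and often deleted with it, was expressed in both groups.

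By the root mean square difference of centred log2 CPM over the 6 samples, among 10353 genes compared, the patterns most like that of CCND1 were those of GEMIN4 (0.0143) and EAF1 (0.0165). Those most like CDKN1A were CCDC85B (0.0321) and CDK2AP2 (0.0377). These 2 had log2 fold changes of -1.70 and -1.67, beside -1.72 for CDKN1A. CDK2AP2 had 48.6, 49.7 and 46.5 CPM in shCtrl and 16.2, 15.7 and 13.7 CPM in shAC007128.1. Its groups do not overlap. Such likeness to CDKN1A follows from the choice by pattern over the same 6 samples.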
